A study of Mus musculus with 2 samples.

Results

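The WNT genes described here are the ligands, receptors, secreted inhibitors, feedback genes and nuclear factors of WNT signalling that stood in the authors' table of genes differing between irradiated and untreated aged mouse skin. They were taken by a rule on gene symbols, from the gene families Wnt, Fzd, Sfrp, Dkk, Rspo, Axin, Nkd, Kremen and Apcdd and from 17 further named genes of the pathway. That choice was made with earlier results of these data known. The table held 33 such genes among 4183 rows. In RefSeq, 66 protein-coding mouse genes meet the same rule; the 33 that were not in the table, among them Axin2, Dkk1, Wls and Porcn, were not analysed here, and their absence says nothing of their level or change. The tissue was dorsal skin of C57BL/6 mice aged 18 to 20 months. One group received red light at 8 J/cm² once a day for 28 days and the other was left untreated. Each group has 1 GEO sample, and the number of animals behind it is not stated. All 66 means of the 33 genes are numbers that an average of 3 values with 2 decimals gives, but how many libraries were averaged is not stated either. Each gene has 1 value per group, the authors' mean FPKM (RNA fragments per unit of transcript length and per unit of mapped library size), so there is no spread between animals, no replicate check and no test, and read depth is unknown. The epidermal keratin gene Krt10 stood at 380 FPKM in red light skin and 1600 FPKM in untreated skin, and the dermal matrix gene Dcn at 275 FPKM in red light skin and 864 FPKM in untreated skin, so markers of both skin layers were present in both groups.

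WNT proteins are secreted, lipid-modified signals that bind Frizzled receptors together with LRP co-receptors. In the canonical branch this keeps beta-catenin from being degraded, and beta-catenin then enters the nucleus and switches on genes with the DNA-binding factors LEF1 and TCF. In skin the pathway is known for the formation of hair follicles in the embryo and for the start of hair growth in the adult, and it is held in check by secreted inhibitors and by feedback genes that it switches on itself.

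Of the 33 genes, 22 (66.7%) had the higher mean in red light skin and 11 the lower, against 38.6% labelled higher and 61.4% labelled lower among all 4183 rows. The median log2 ratio of red light to untreated was 1.20 for the 33 genes, or 2.29-fold higher, beside −1.21 over the whole table. All but 5 of the 4183 rows differed by at least 2-fold in the direction of their label; none of the 5 is a WNT gene. The smallest difference among the 33 genes, that of Ctnnb1, was 2.01-fold. At least 4-fold differences were found for 5 genes on the higher side (15.2%, against 18.2% of all rows) and 4 on the lower side (12.1%, against 18.9%). The nuclear factors and the intracellular and membrane inhibitors were all higher, and the Frizzled receptors were higher in 6 of 7 cases. The ligands were divided 5 to 4, and the secreted inhibitors, with Dkkl1 counted among them by the symbol rule, were lower in 5 of 8. With 37.5% higher, the secreted inhibitors were close to the 38.6% labelled higher among all rows. Skin was measured whole, so fewer cells of a type and less RNA per cell cannot be told apart in any of these values.

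**Figure D1:**
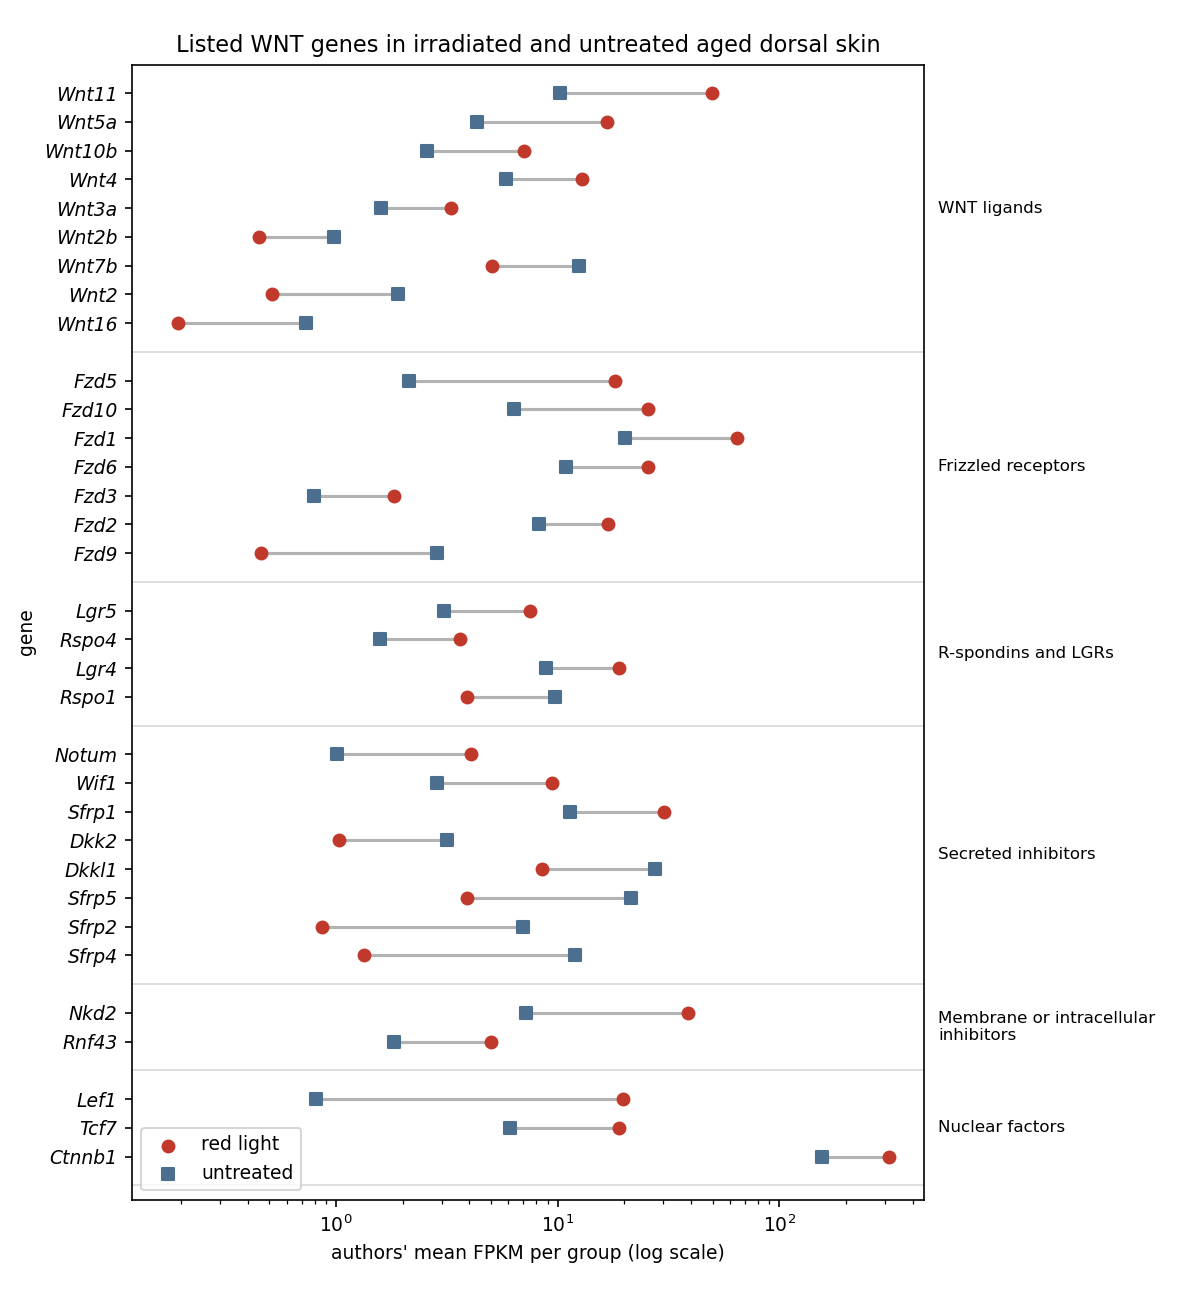
Authors' mean FPKM (log axis) of the 33 listed WNT genes, grouped by role, with red circles for red light skin, blue squares for untreated skin and a grey line joining the 2 values of a gene. Lef1 has the widest gap, with 19.8 FPKM in red light skin and 0.813 FPKM in untreated skin, and in Sfrp2, Sfrp4, Sfrp5 and Fzd9 the red light mean lies far to the left of the untreated one.

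The means of the 33 genes ranged between 0.193 and 313 FPKM, and their order differed between the groups. In red light skin Ctnnb1 had the highest mean, followed by the receptor gene Fzd1, the ligand gene Wnt11, the feedback gene Nkd2 and the inhibitor gene Sfrp1. In untreated skin Ctnnb1 was also highest, followed by Dkkl1, Sfrp5, Fzd1, Wnt7b and Sfrp4. Only 2 genes, Wnt2b and Wnt16, were under 1 FPKM in both groups. All 33 labels had the same direction as the means.

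Among the nuclear genes, Lef1 had the largest ratio of all 33. Lef1, which encodes a DNA-binding partner of beta-catenin found in the hair matrix and in precursors of the hair shaft, averaged 19.8 FPKM in red light skin and 0.813 FPKM in untreated skin. This is 24.3-fold (log2 4.60), and with a pseudocount of 1 FPKM, which shrinks the ratios of low values, the log2 ratio was 3.52. By ratio Lef1 was number 310 of the 1613 genes labelled higher. Tcf7, the gene of the related factor TCF1 that T cells also express, averaged 19.0 FPKM in red light skin and 6.07 FPKM in untreated skin, or 3.13-fold. The mean of Lef1 was thus 1.04 times that of Tcf7 in red light skin and 0.134 times in untreated skin. Ctnnb1 encodes beta-catenin, which also serves in adherens junctions. It averaged 313 FPKM in red light skin and 156 FPKM in untreated skin, a ratio of 2.01. Its absolute difference of 157 FPKM was larger than that of any other of the 33 genes.

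The promoter window of Lef1 is shown because this gene had the largest ratio. RefSeq gives 4 Lef1 start sites in the build GRCm38.p6; the window of the first, chr3:131110047-131110346 on the plus strand, runs from 250 bases before the start to 50 after it. It is 67.3% G and C, with 18 CpG pairs, and holds no match to either of the core motifs searched, CTTTGAT and CTTTGAA, in which LEF and TCF factors are known to bind.
Lef1: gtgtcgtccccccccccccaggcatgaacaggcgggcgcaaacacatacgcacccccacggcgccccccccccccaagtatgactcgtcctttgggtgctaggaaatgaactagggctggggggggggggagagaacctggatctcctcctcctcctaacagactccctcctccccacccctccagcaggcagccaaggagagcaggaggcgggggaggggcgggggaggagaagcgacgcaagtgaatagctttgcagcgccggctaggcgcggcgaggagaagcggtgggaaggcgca

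The listed WNT ligands summed to 95.9 FPKM in red light skin and 40.6 FPKM in untreated skin, 2.36 times as much. The 10 ligand genes not in the table are left out, so this ratio and the shares below describe the listed ligands and not the family. Wnt11, a ligand known mainly for beta-catenin-independent signalling, averaged 49.8 FPKM in red light skin and 10.2 FPKM in untreated skin, or 4.88-fold. Its share of the listed ligand FPKM was 51.9% in red light skin and 25.1% in untreated skin. Wnt5a, the classical ligand of the beta-catenin-independent branch, averaged 16.7 FPKM in red light skin and 4.30 FPKM in untreated skin, a ratio of 3.87. Wnt10b, a canonical ligand known to promote hair growth, averaged 7.05 FPKM in red light skin and 2.57 FPKM in untreated skin (2.74-fold). These 3 ligands had the largest ratios of the 9 listed. Wnt4 averaged 12.9 FPKM in red light skin and 5.82 FPKM in untreated skin (2.21-fold). Wnt3a, a canonical ligand, averaged 3.29 FPKM in red light skin and 1.60 FPKM in untreated skin (2.05-fold), and with it 5 of the 9 ligands had the higher mean after irradiation.

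The other 4 ligands had the lower mean in red light skin. Wnt7b, a canonical ligand of epithelia, averaged 5.07 FPKM in red light skin and 12.5 FPKM in untreated skin, or 2.46-fold lower. It was the most abundant listed ligand in untreated skin, with 30.7% of the ligand FPKM, against 5.29% in red light skin. The mean of Wnt11 was 9.82 times that of Wnt7b in red light skin and 0.818 times in untreated skin. Wnt2 averaged 0.517 FPKM in red light skin and 1.91 FPKM in untreated skin (3.70-fold lower). Wnt16 averaged 0.193 FPKM in red light skin and 0.730 FPKM in untreated skin (3.78-fold lower). Wnt2b averaged 0.450 FPKM in red light skin and 0.983 FPKM in untreated skin (2.19-fold lower). With a pseudocount of 1 the log2 ratios of Wnt2, Wnt16 and Wnt2b were −0.94, −0.54 and −0.45, so these 3 differences lie at levels where little RNA was measured.

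The window of the first Wnt11 start site, chr7:98834862-98835161 on the plus strand of GRCm38.p6, is shown because it was the 1 promoter of the set with a core motif. The capitals mark CTTTGAT read on the opposite strand, whose first base here is number 200 of the window, 51 bases before the start. The window is 71.3% G and C.
Wnt11: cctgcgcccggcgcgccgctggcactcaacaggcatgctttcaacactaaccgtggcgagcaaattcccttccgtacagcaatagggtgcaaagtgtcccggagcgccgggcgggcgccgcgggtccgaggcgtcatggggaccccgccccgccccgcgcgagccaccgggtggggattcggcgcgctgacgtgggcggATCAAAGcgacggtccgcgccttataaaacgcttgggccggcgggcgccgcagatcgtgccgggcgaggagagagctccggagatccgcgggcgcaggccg

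Promoter windows were at hand in RefSeq for 24 of the 33 genes. Fzd2, Fzd3, Fzd6, Lgr5, Notum, Sfrp1, Sfrp4, Wnt5a and Wnt7b had none in the table used. Either core motif, on either strand, was present for 1 of the 24 (4.17%), against 9.88% of 27025 genes and 8.95% of the 3139 listed genes with a window. The windows of these genes were rich in CpG pairs: counting the richest window of each gene, the median was 26.5 for the 24 genes, 31 for the 15 with the higher mean and 22 for the 9 with the lower mean, beside 13 for all listed genes and 8 for all genes with a window. A match is a description of these letters and no sign of binding, and the absence of one says only that the letters are not in these 300 bases.

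The listed Frizzled receptors, the seven-pass membrane proteins to which WNT ligands bind, summed to 153 FPKM in red light skin and 51.5 FPKM in untreated skin, 2.98 times as much. Fzd4, Fzd7 and Fzd8 were not in the table, so this ratio and the shares below describe the listed receptors and not the family. Fzd5 had the largest ratio, with 18.2 FPKM in red light skin and 2.14 FPKM in untreated skin, or 8.50-fold. Fzd10 averaged 25.5 FPKM in red light skin and 6.39 FPKM in untreated skin, or 3.997-fold. Fzd1 was the most abundant listed receptor in both groups, with 64.7 FPKM in red light skin and 20.2 FPKM in untreated skin (3.20-fold). It held 42.2% of the summed FPKM of the listed receptors in red light skin and 39.3% in untreated skin. Fzd6, known for its part in the orientation of hairs, averaged 25.7 FPKM in red light skin and 10.9 FPKM in untreated skin (2.36-fold). Fzd3 had 1.83 FPKM in red light skin and 0.793 FPKM in untreated skin (2.30-fold). Fzd2 averaged 16.9 FPKM in red light skin and 8.21 FPKM in untreated skin (2.06-fold), so the 6 receptors with the higher mean ranged between 2.06-fold and 8.50-fold. Fzd9 was the exception. It averaged 0.457 FPKM in red light skin and 2.85 FPKM in untreated skin, 6.25-fold lower, and its share of the receptor FPKM was 0.298% in red light skin and 5.54% in untreated skin. The log2 ratio of Fzd9 was −2.64, or −1.40 with 1 FPKM added to both means.

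R-spondins are secreted proteins that strengthen WNT signalling by binding LGR receptors, which draws the ubiquitin ligases RNF43 and ZNRF3 away from Frizzled. Both listed receptors were higher. Lgr5, a marker of follicle stem cells, averaged 7.52 FPKM in red light skin and 3.06 FPKM in untreated skin (2.46-fold). Lgr4 averaged 18.9 FPKM in red light skin and 8.87 FPKM in untreated skin (2.13-fold). The 2 listed ligands went opposite ways: Rspo4, known in humans for its part in nail development, averaged 3.61 FPKM in red light skin and 1.57 FPKM in untreated skin (2.29-fold higher), while Rspo1 averaged 3.92 FPKM in red light skin and 9.75 FPKM in untreated skin (2.49-fold lower). Their levels were thus close in red light skin, where Rspo4 stood at 0.921 times Rspo1, against 0.161 times in untreated skin.

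Secreted inhibitors held the 2 lowest ratios of the 33 genes. Secreted Frizzled-related proteins (SFRPs) resemble the ligand-binding part of Frizzled and can bind WNT proteins outside the cell. Sfrp4 averaged 1.33 FPKM in red light skin and 11.9 FPKM in untreated skin, a log2 ratio of −3.16. Sfrp2 averaged 0.863 FPKM in red light skin and 7.01 FPKM in untreated skin, a log2 ratio of −3.02. Sfrp5 averaged 3.91 FPKM in red light skin and 21.5 FPKM in untreated skin, a log2 ratio of −2.46. Sfrp1 went the other way, with 30.3 FPKM in red light skin and 11.4 FPKM in untreated skin, 2.66-fold higher. With a pseudocount of 1 the log2 ratios of Sfrp4 and Sfrp2 were −2.47 and −2.10.

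The sum of the 4 SFRP genes was therefore less different than its parts, at 36.4 FPKM in red light skin and 51.8 FPKM in untreated skin, a ratio of 0.702. Its make-up differed more: Sfrp1 held 83.2% of it in red light skin and 21.9% in untreated skin. The other 3 together had 6.11 FPKM in red light skin and 40.4 FPKM in untreated skin. The mean of Sfrp1 was 22.7 times that of Sfrp4 in red light skin and 0.952 times in untreated skin.

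**Figure D2:**
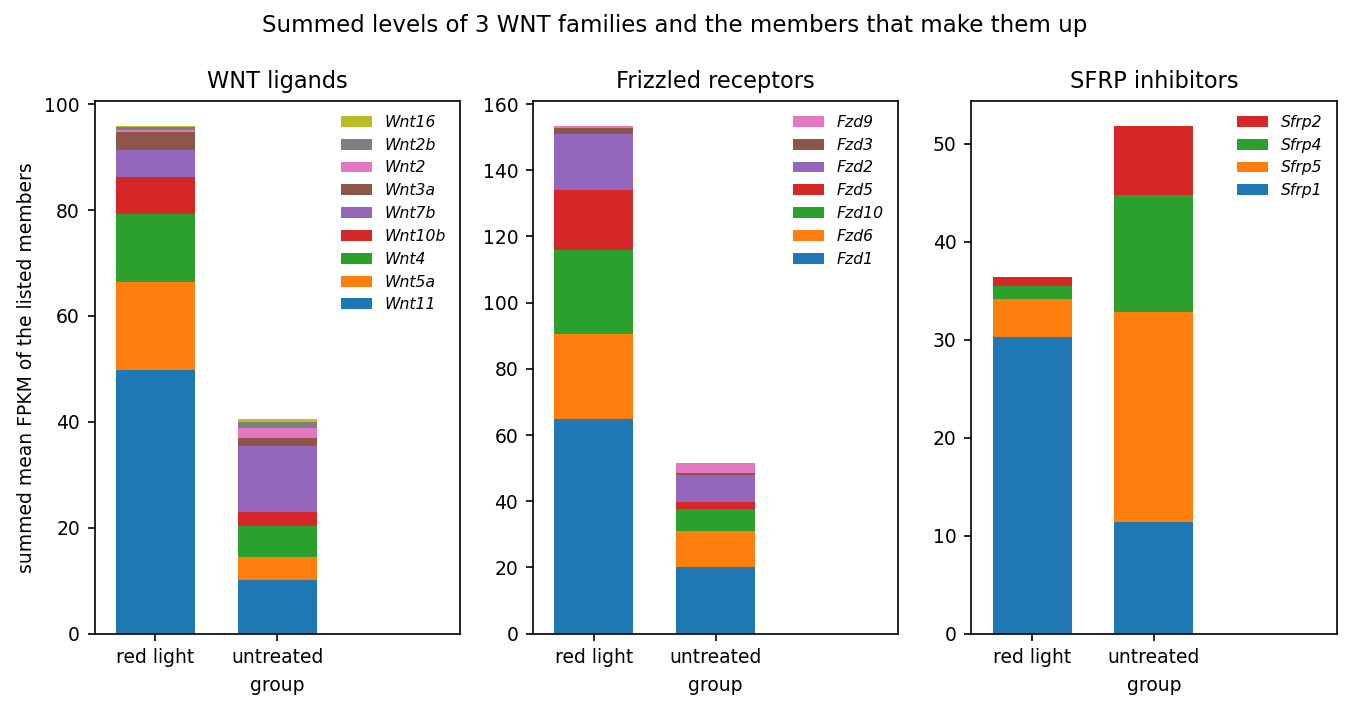
Summed mean FPKM of the listed WNT ligands, Frizzled receptors and SFRP inhibitors, with the red light bar left of the untreated bar and 1 colour per gene. The ligand and receptor bars are taller in red light skin (95.9 and 153 FPKM, against 40.6 and 51.5 FPKM in untreated skin), while the SFRP bar is shorter (36.4 against 51.8 FPKM) and is mostly Sfrp1 after irradiation. Ligand and Frizzled genes that were not in the table are left out.

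The promoter window of Sfrp2 is shown as that of the gene with the lowest ratio among those with a window. It lies at chr3:83766071-83766370 on the plus strand of GRCm38.p6, is 66.0% G and C with 22 CpG pairs, and holds neither core motif.
Sfrp2: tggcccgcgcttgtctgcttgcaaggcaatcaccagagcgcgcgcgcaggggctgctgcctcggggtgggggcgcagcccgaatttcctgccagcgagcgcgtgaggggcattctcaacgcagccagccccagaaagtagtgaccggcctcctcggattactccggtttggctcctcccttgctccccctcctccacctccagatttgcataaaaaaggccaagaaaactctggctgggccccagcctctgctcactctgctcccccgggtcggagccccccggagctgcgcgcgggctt

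Of the remaining secreted inhibitors, Notum and Wif1 were higher and Dkk2 and Dkkl1 lower. Notum, an enzyme that removes the lipid WNT proteins need for binding and that the pathway itself switches on, averaged 4.07 FPKM in red light skin and 1.01 FPKM in untreated skin, or 4.03-fold (log2 2.01, or 1.33 with a pseudocount of 1). Wif1, which binds WNT proteins directly, averaged 9.45 FPKM in red light skin and 2.85 FPKM in untreated skin (3.31-fold). Dkk2, whose protein binds the LRP co-receptors, averaged 1.03 FPKM in red light skin and 3.18 FPKM in untreated skin (3.08-fold lower). Dkkl1, which the symbol rule brings in and which is related to the DKK family without an established place in the canonical pathway, averaged 8.47 FPKM in red light skin and 27.5 FPKM in untreated skin (3.25-fold lower).

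The 2 listed inhibitors that act inside the cell or in its membrane were both higher. Nkd2, which binds Dishevelled and dampens the signal, averaged 38.9 FPKM in red light skin and 7.19 FPKM in untreated skin, or 5.40-fold. Rnf43, a ubiquitin ligase that removes Frizzled from the surface and is a known target of the pathway, averaged 5.02 FPKM in red light skin and 1.83 FPKM in untreated skin, or 2.75-fold. With Notum and Wif1 they make 4 negative regulators that were higher beside Sfrp1. The 5 lower genes grouped as secreted inhibitors include Dkkl1, whose place in the canonical pathway is not established.

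Other genes of the pathway were less one-sided. Of 103 further genes in a list of the pathway, 29 were in the table, 14 higher (48.3%, against 38.6% of all rows) and 15 lower. Their median log2 ratio was −1.21, that of Camk2d, the lower gene with the smallest difference. Few rows have a log2 ratio between −1 and 1, so a nearly even split puts the median at an edge of that gap. That the whole table also had −1.21 therefore does not make the 2 alike. Those of at least 1 FPKM with the largest ratios were Bambi, a decoy receptor of the TGF-beta family, at 24.3 FPKM in red light skin and 1.37 FPKM in untreated skin, the planar polarity gene Vangl2 at 19.6 FPKM in red light skin and 3.66 FPKM in untreated skin, and the kinase gene Csnk1e at 95.2 FPKM in red light skin and 32.8 FPKM in untreated skin. The lowest were the calcium-dependent kinase genes Camk2a, at 3.63 FPKM in red light skin and 19.5 FPKM in untreated skin, and Camk2b, at 3.67 FPKM in red light skin and 19.7 FPKM in untreated skin, followed by Plcb4, a phospholipase gene, at 2.15 FPKM in red light skin and 8.81 FPKM in untreated skin. In a division of this list made after the values were seen, all 6 listed of 15 planar polarity genes were higher (Vangl2, Ror2, Celsr1, Celsr2, Prickle1 and Prickle2, median 2.52-fold) and all 10 listed of 19 genes of the calcium branch were lower (median 3.21-fold), beside 38.6% higher and 61.4% lower among all rows. The log2 ratios of Camk2a and Camk2b, both −2.42, stood within the range of the skeletal muscle markers given further on. The rest of the calcium branch lay above that range, between −2.03 (Plcb4) and −1.21 (Camk2d). What part muscle has in these ratios was not tested. Nfatc1, in the calcium branch, is also counted among the follicle stem cell markers given further on.

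Genes known as WNT targets, from a list of 56, were in the table in 27 cases, 19 higher (70.4%, against 38.6% of all rows) and 8 lower. Their median log2 ratio was 1.93. Of these 27, 4 are hair keratin genes that also serve as hair markers. Without them 15 of 23 (65.2%) were higher and the median was 1.32. Only genes of the hair marker list were taken out, so other genes of hair growth may remain among the 23, and their part was not tested. The 3 with the largest ratios were among those keratins. Krt35 averaged 444 FPKM in red light skin and 0.967 FPKM in untreated skin, Krt31 averaged 774 FPKM in red light skin and 2.12 FPKM in untreated skin, and Krt33a averaged 1383 FPKM in red light skin and 4.24 FPKM in untreated skin. The lowest of at least 1 FPKM were Ccn1, a matrix-associated signal, at 33.4 FPKM in red light skin and 198 FPKM in untreated skin, Ccn5 at 5.28 FPKM in red light skin and 22.1 FPKM in untreated skin, and Prox1, a gene of lymphatic endothelium, at 0.307 FPKM in red light skin and 1.22 FPKM in untreated skin. Many of these targets answer to other pathways as well.

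Cell type markers differed along with the WNT genes. All 79 listed hair shaft and inner root sheath markers were higher, led by Krtap24-1, Krtap19-4 and Krtap9-5, and their FPKM summed to 67478 in red light skin and 224 in untreated skin. Their log2 ratios began at 5.05, so all 22 higher WNT genes, Lef1 included, had smaller ratios than any of them. Of 24 cycling cell markers, 21 were listed and all of these were higher, with log2 ratios between 1.36 and 2.98 and sums of 237 FPKM in red light skin and 58.4 FPKM in untreated skin. Mki67 stood at 10.3 FPKM in red light skin and 1.30 FPKM in untreated skin, and Cenpe and Bub1 had the next largest ratios. Of the 22 higher WNT genes, Lef1 and Fzd5 lay above all 21 of these markers, 11 lay within their range and 9 lay below all of them. Of 16 dermal papilla markers 5 were listed, 3 higher and 2 lower, with sums of 6.89 FPKM in red light skin and 5.71 FPKM in untreated skin. Corin stood at 2.98 FPKM in red light skin and 0.220 FPKM in untreated skin and Alx4 at 2.06 FPKM in red light skin and 0.497 FPKM in untreated skin, while Fgf7 and Ptprz1 were 3.23-fold and 3.78-fold lower. Of 14 markers of follicle stem cells and the outer root sheath 9 were listed, 5 of them higher, with sums of 2058 FPKM in red light skin and 930 FPKM in untreated skin. The largest ratios were those of Lhx2, Sox9 and Foxc1, which were 6.80-fold, 4.13-fold and 3.04-fold higher, while Krt6b, Nfatc1 and Fgf18 were 17.8-fold, 3.42-fold and 3.31-fold lower. One hair marker, Krtap5-3, was listed at 0 FPKM in untreated skin, and no other listed marker was at 0 in either group. What part these differences in cell type markers have in the ratios of the WNT genes was not tested.

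Listed markers of the dermis, fat and muscle lay on the lower side, as did 11 WNT genes. So did 3 genes of the upper epidermis, chosen after their values were seen: the log2 ratios of Krt10, Lor and Krt1 were −2.07, −1.85 and −1.46. Of 16 dermal fibroblast markers 11 were listed and all 11 were lower, with log2 ratios between −2.10 and −1.03 and sums of 1146 FPKM in red light skin and 3362 FPKM in untreated skin; Pdgfrl, Dcn and Gsn were lowest. Of the 11 lower WNT genes, Sfrp2, Sfrp4, Sfrp5 and Fzd9 lay below all of these markers and the other 7 within their range. Of 15 adipocyte markers 2 were listed and both were lower, Acacb at 17.4 FPKM in red light skin and 47.7 FPKM in untreated skin and Cidea at 35.3 FPKM in red light skin and 96.4 FPKM in untreated skin. Of the 11 lower WNT genes 8 lay below both, Sfrp5 among them. Of 26 skeletal muscle markers 25 were listed and all 25 were lower, with log2 ratios between −3.61 and −2.32, lowest of at least 1 FPKM in Trim63, Pygm and Atp2a1, and their sums were 3357 FPKM in red light skin and 20040 FPKM in untreated skin. The ratios of Sfrp2, Sfrp4, Sfrp5 and Fzd9 stood within that range, and the part of any of these tissues in them was not tested.

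**Figure D3:**
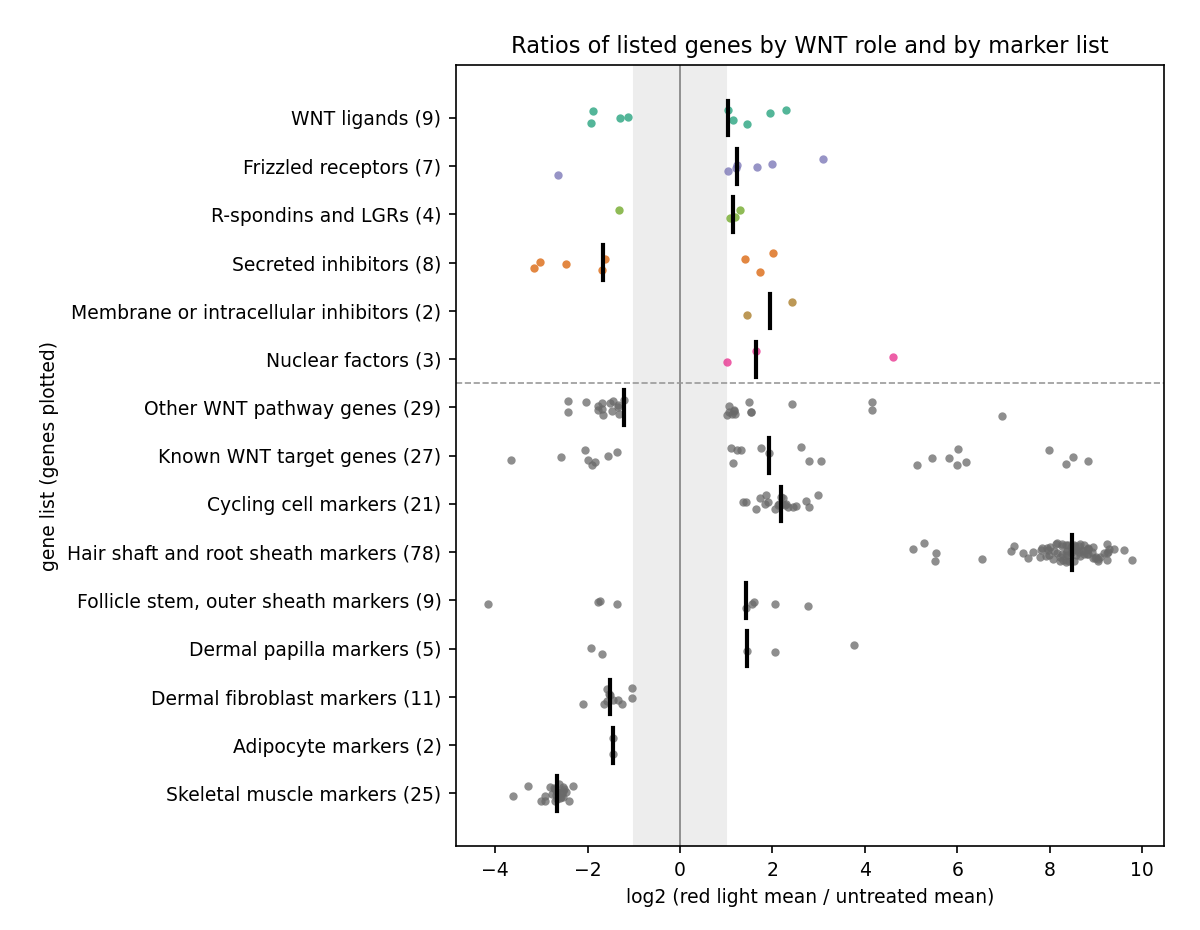
Log2 ratio of the red light mean to the untreated mean for each listed gene (points), by WNT role above the dashed line and by other list below it, with a black bar at each list's median and grey shading between −1 and 1, the ratios under 2-fold. The 8 secreted inhibitors, Dkkl1 included, have the only role median below 0 (−1.66, beside −1.21 over the whole table). The hair markers, of which 1 listed at 0 FPKM in untreated skin is not drawn, lie to the right of every WNT gene of the 6 roles.

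Some of the 33 genes share exon bases with another annotated gene, and whether counting used strand is not stated. In GENCODE M21 this held for 9 of them, each with a gene on the opposite strand. The largest overlap was that of Notum, with 29.4% of its exon bases under the antisense gene Notumos, followed by Fzd5 (17.8%), Sfrp2 (16.1%), Ctnnb1 (14.6%, with Ulk4) and Lef1 (13.7%). If strand was not used, reads of a gene and its antisense partner cannot be told apart. None of the overlapping genes was itself in the table.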

How the data were processed

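RNA of dorsal skin was measured in 2 GEO samples, 1 per group. Per the labels' protocols, oligo(dT) beads were used to enrich mRNA before library preparation with an NEBNext Ultra kit. DESeq2 1.40.2, R 4.3.1, Bowtie2 2.2.8 and RSEM appear in the submitters' processing notes without a role; the build and the criteria for listing a gene are not given in the sources used here. Per the file headers, the authors deposited a mean FPKM per group and a direction label, with no single library values. FPKM is a relative scale, on which abundant hair transcripts lower the values of all other genes.

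The members and lists were chosen with earlier results of these data known. The ratio of the red light mean to the untreated mean was taken without a pseudocount, and lists are described by counts and medians, with no test. All 33 genes are named with both values; of each other list, up to 3 genes per direction with the largest ratio and at least 1 FPKM in either group are named. Promoter windows came from RefSeq (GRCm38.p6), exons from GENCODE M21. Protein sequences were not used here. Alternatives were pseudocounts of 1 and 0.1, a minimum of 1 FPKM, a rescaling, a 4-fold limit and leaving out Dkkl1 and Lrp4. The calculations were tested on simulated data. Python 3.11.15, numpy 2.4.6, pandas 2.3.3 and matplotlib 3.10.9 were used.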

Additional observations from a re-analysis of the deposited data

How the results depend on the processing

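All 33 ratios kept their direction under both pseudocounts, which cannot turn a direction. They also kept it under a rescaling to the listed FPKM outside the hair and muscle markers, which moved every log2 ratio up by 0.15. That sum holds only genes listed as differing, so the shift does not measure how far hair transcripts lowered other values. As no log2 ratio was nearer to 0 than 1.01, this shift could not turn a direction either. The count of 22 higher and 11 lower genes was 5 and 4 at 4-fold, fewer by construction. At a log2 ratio of 1 or over it was 18 and 8 with a pseudocount of 1, 21 and 10 with 0.1, 22 and 10 after the rescaling and 22 and 9 with a minimum of 1 FPKM. The same recounts over all rows are not given here, so these counts have no background share beside them. Leaving out Dkkl1 gave 22 and 10; Lrp4 was not in the table. The median log2 ratio of the 33 genes lay between 1.01 and 1.35 over these alternatives, and no role median changed sign. Neither the pseudocounts nor the rescaling could have turned a role median. A pseudocount of 1 moved 8 single genes by over 1.5-fold: Lef1 (3.52), Notum (1.33), Wnt2b (−0.45), Wnt2 (−0.94), Wnt16 (−0.54), Fzd9 (−1.40), Sfrp2 (−2.10) and Sfrp4 (−2.47). No paired analysis was possible because the table gives only group means, and no replicate could be left out. Depth is unknown, so the counting error of genes under 1 FPKM is not known.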
